A study of Saccharomyces cerevisiae with 55 samples.

Results

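The small subunit processome is the large nucleolar assembly that folds, cuts and modifies the RNA precursor of the small (40S) ribosomal subunit. A set of 52 yeast genes that encode its proteins or later 40S assembly factors was followed through the arrays of a study of inositol pyrophosphates and the environmental stress response. The genes were picked by name, as known members of the assembly. The rule uses no measured value, but the list was drawn up with earlier results of these data known. All 52 were on the array, among 6249 genes or probes, and 36 of them had a value on every array with a group. NOP56 and NOC4 were found under older names.

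The processome forms on the nascent ribosomal RNA around the U3 small nucleolar RNA. The UTP-A proteins bind the leading end of the transcript first and are followed by UTP-B, the U3 particle, the Mpp10 complex, UTP-C and many single factors. RNA helicases and a GTPase remodel the particle, enzymes modify the RNA, and a late group of proteins accompanies the small subunit precursor out of the nucleolus. In budding yeast these genes belong to the large group of growth genes that are switched off together in stress, and the histone deacetylase Rpd3 is a known repressor of such genes.

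Each of the 55 two-colour arrays set 1 RNA against another, and the values are log2 ratios. All strains are of the W303 background, MATa, and grew to mid-log phase in YEPD, the unstressed state called log growth here. Wild type in 0.375 M KCl (osmotic stress, n = 3 arrays), in 0.4 mM H2O2 (n = 2), at 42 °C (n = 1) and in 200 nM rapamycin, an inhibitor of the growth kinase complex TORC1 (n = 1), was set against wild type in log growth. Each mutant was set against wild type in the same condition, in log growth and in KCl. The mutants are kcs1/vip1, written kcs1vip1 here, which lacks both kinases that make inositol pyrophosphates (3 and 3 arrays), kcs1 (2 and 2), vip1 (2 and 3), arg82 (2 and 3) and ipk1 (2 and 3), which lack single enzymes of that pathway, rpd3 (1 and 1), snt1, which lacks a subunit of the Set3 deacetylase complex (2 and 2), and the alleles Rpd3ibs and Vip1D487A (2 and 2 each). The labels do not say what the suffix of Rpd3ibs stands for. The double mutant was also set against wild type in H2O2 (n = 2) and at 42 °C (n = 1), against itself without stress in KCl and in H2O2 (n = 1 each), and, in KCl, with rapamycin against without (n = 3). Every treatment lasted 20 min. Each genotype is 1 strain, and no label tells whether arrays of 1 group had separate cultures as their source, so p-values measure only the spread between arrays. A ratio of total RNA cannot tell fewer expressing cells from less RNA per cell, and it gives no level, so the mating type could not be checked from its defining markers.

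Arrays held 5216 to 6206 values. Their medians lay between -0.09 and 0.05 except on the wild type rapamycin array, where the median was 0.38. Several arrays stood apart or went against their labels, and 1 further array fits no group, since its labels disagree on what it compared. KCS1 was -5.17 or lower on the other 5 arrays of kcs1 and kcs1vip1 over wild type that gave it a value, and -0.30 on the array labelled kcs1 log growth replicate 2. That array correlated with replicate 1 at r = 0.14 across genes, and IPK1 was at -2.87 on it. The other kcs1 arrays had IPK1 at 0.35 in log growth and at 0.45 and -0.35 in KCl. Which strain the doubted array held was not tested. The array labelled ipk1 KCl replicate 2 correlated with replicates 1 and 3 at 0.09 and 0.16, against 0.78 between those 2, and the 2 arrays labelled ipk1 log growth correlated at 0.35. On the arrays labelled kcs1vip1 over wild type in H2O2 and heat the leucine gene LEU1 was -0.03, 0.27 and 0.26, where all 6 arrays of that strain in log growth and KCl had it at -4.78 or lower, and VIP1 was -0.01 on the heat array. No direction is drawn from those 3 arrays. The dye-swapped Vip1D487A arrays correlated with the unswapped ones at 0.02 in log growth and 0.15 in KCl, so the sign of that mutant is unsettled. Wild type KCl replicate 1 was dye-swapped too. With its sign as deposited it correlated with the unswapped replicates 2 and 3 at 0.89 and 0.91. On arrays of kcs1vip1 against itself both channels lack the deleted genes. Rapamycin replicate 1 and the KCl over log growth array gave KCS1 and VIP1 no value, but rapamycin replicates 2 and 3 gave KCS1 as 1.03 and -0.17 and VIP1 as 1.18 and -0.16, and the H2O2 over log growth array gave VIP1 as 0.16. IPK1 and RPD3 had no value on any array of their deletion mutants. KCS1 also had no value on ipk1 replicate 2 in log growth and in KCl. The other ipk1 arrays gave KCS1 as -0.15 in log growth and as -0.06 and -0.30 in KCl.

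**Figure D1:**
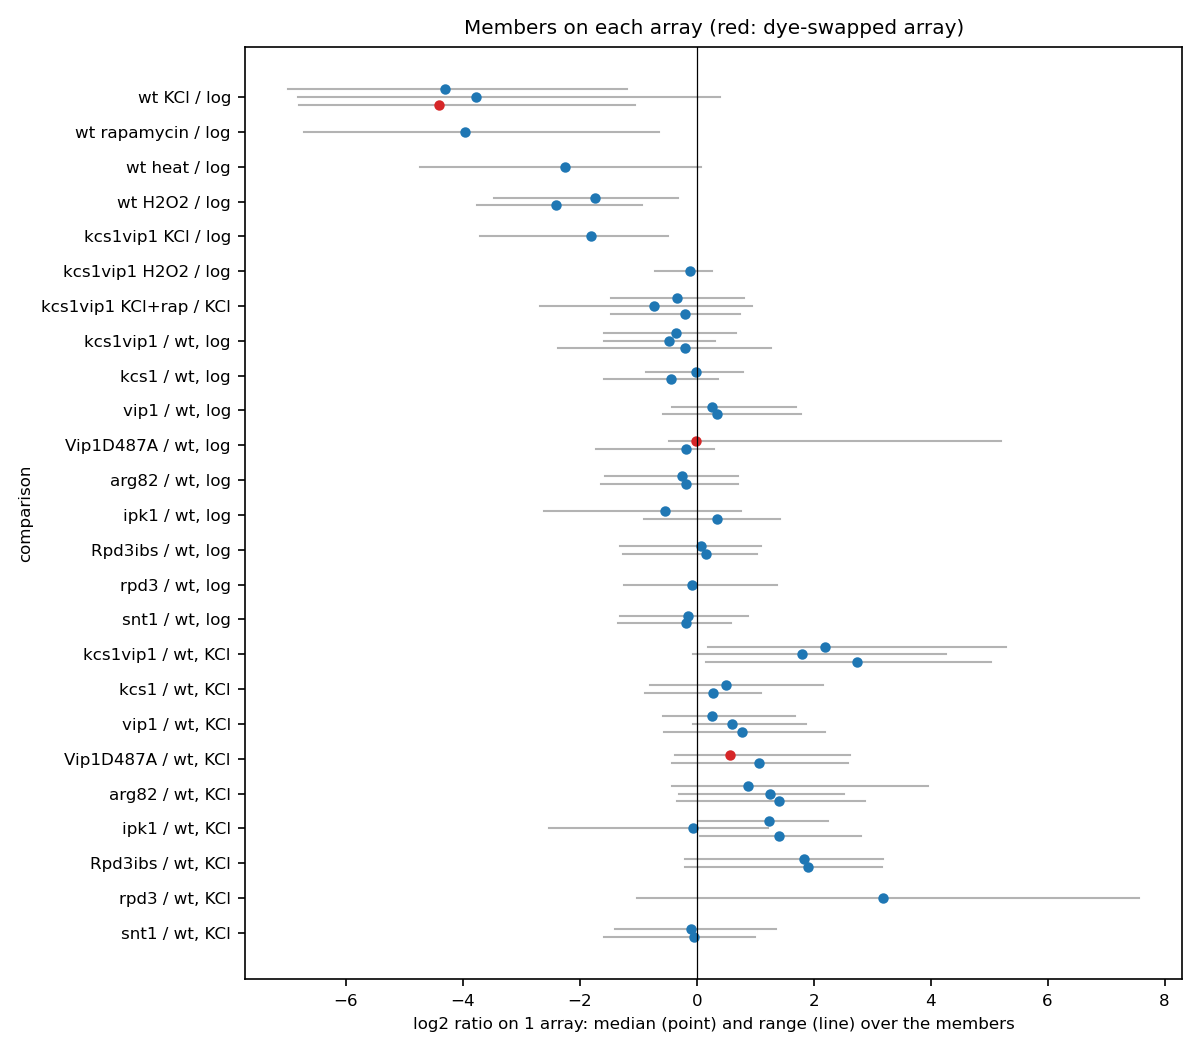
Log2 ratio of the 52 genes on each array (x axis) for 25 comparisons (y axis), 1 line an array: the point is the median over the genes, the line their lowest to highest value, and red marks a dye-swapped array. The 3 wild type KCl arrays have the lowest medians with the wild type rapamycin array, the kcs1vip1 and Rpd3ibs KCl arrays lie above 0, and ipk1 KCl replicate 2 lies apart from the other ipk1 KCl arrays.

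In wild type cells every processome gene fell in KCl. The median over the 52 genes was -4.24, a 18.9-fold reduction, and the range ran from -6.87 for NSR1 to -1.31 for RRP7. All 52 passed the test (limma with empirical Bayes, Benjamini-Hochberg adjusted p below 0.05 over all 5863 genes tested), against 31.3% of all genes that fell, and the median of all genes was -0.02. The largest adjusted p among the 52 was 0.00127, that of BUD22. For 50 of the 52 genes every array with a value was below 0. Among other genes in the same contrast, 12 of 14 stress-induced check genes rose (median 9.19), 4 of 6 a-cell markers fell (median -0.69) and 0 of 4 alpha-cell markers passed (median 0.00). Their part in the processome values was not tested.

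The classes differed in depth. The late 40S factors had the lowest class median (-4.58), next to UTP-B (-4.47), the helicases with the GTPase (-4.38) and UTP-A (-4.27). The U3 proteins lay at -4.15, the other processome factors at -3.97 and the Mpp10 complex at -3.26, with the modifying enzymes between the U3 proteins and the other factors. The shallowest class was UTP-C, whose 2 proteins bind each other and the protein kinase CK2, at -1.56. UTP22 was at -1.62, -1.92 and -1.87 on the 3 arrays and RRP7, its partner, at -1.06, -1.67 and -1.19. Both genes were lowered on every array and by far less than the set's median, and both passed (adjusted p = 2.47e-09 and 2.03e-05). These class medians are set side by side without a test of their differences.

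The deepest and the shallowest gene of the other classes show the spread within each. NSR1, the yeast relative of the nucleolar RNA-binding protein nucleolin, was at -6.80, -6.82 and -6.99, the lowest gene of the set on all 3 arrays. RRP12, a HEAT-repeat protein needed for export of both subunits, was at -6.34, -5.94 and -6.10. The RNA acetyltransferase gene KRE33 was at -5.19, -6.44 and -5.74 and the methyltransferase gene EMG1, the shallowest of the enzymes, at -3.02, -3.48 and -3.35. The enzymes therefore spanned -5.79 to -3.28 in their means, with no overlap between the arrays of these 2 genes.

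Among the scaffold genes, UTP4 of UTP-A was at -5.12, -5.58 and -5.41. NAN1 of the same complex was at -5.13, -5.92 and -5.07, and UTP9 at -4.08, -3.41 and -3.52. The UTP-A range was thus set by UTP9 at one end and by UTP4 and NAN1, whose arrays overlapped, at the other. PWP2, a beta-propeller subunit of UTP-B, was at -3.55, -5.49 and -5.11, a wide spread for 1 gene, while UTP18 was at -4.79, -5.29 and -4.96 and UTP6 at -4.35 and -4.37 with no value on replicate 2. The means of the 6 UTP-B genes lay within -5.01 and -4.36.

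In the U3 particle, NOP1, the methyltransferase known elsewhere as fibrillarin, was at -3.67, -5.23 and -4.79. NOP58, a core protein of the same family of particles, was at -4.27, -5.30 and -4.77, and RRP9, the U3-specific protein, at -3.66, -3.78 and -3.76. The arrays of RRP9 lay close together, those of NOP1 and NOP58 over 1 log2 unit apart. In the Mpp10 complex IMP3 was at -4.47, -5.06 and -4.33 and MPP10 at -3.63, -2.46 and -3.04, so these 2 partners did not overlap.

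Replicate 2 of wild type in KCl lacked values for UTP6, UTP11, DHR2, ECM16 and LTV1, and it stood apart for 3 further genes. The helicase gene HCA4 was at -5.36, -0.66 and -4.83, LCP5 at -3.85, 0.32 and -4.26, and BUD22 at -3.38, 0.39 and -2.58. On replicate 2 HCA4 was far less lowered than on the other 2 arrays, and LCP5 and BUD22 were not lowered. NSR1 and KRE33 were as low on replicate 2 as elsewhere. Without that array 52 genes fell. The helicase DHR2, with 2 values, was at -5.71 and -5.90, and LTV1, an export factor of the small subunit, at -5.51 and -3.99. ENP1, which travels with LTV1 on the precursor, was at -4.49, -3.19 and -5.57.

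**Figure D2:**
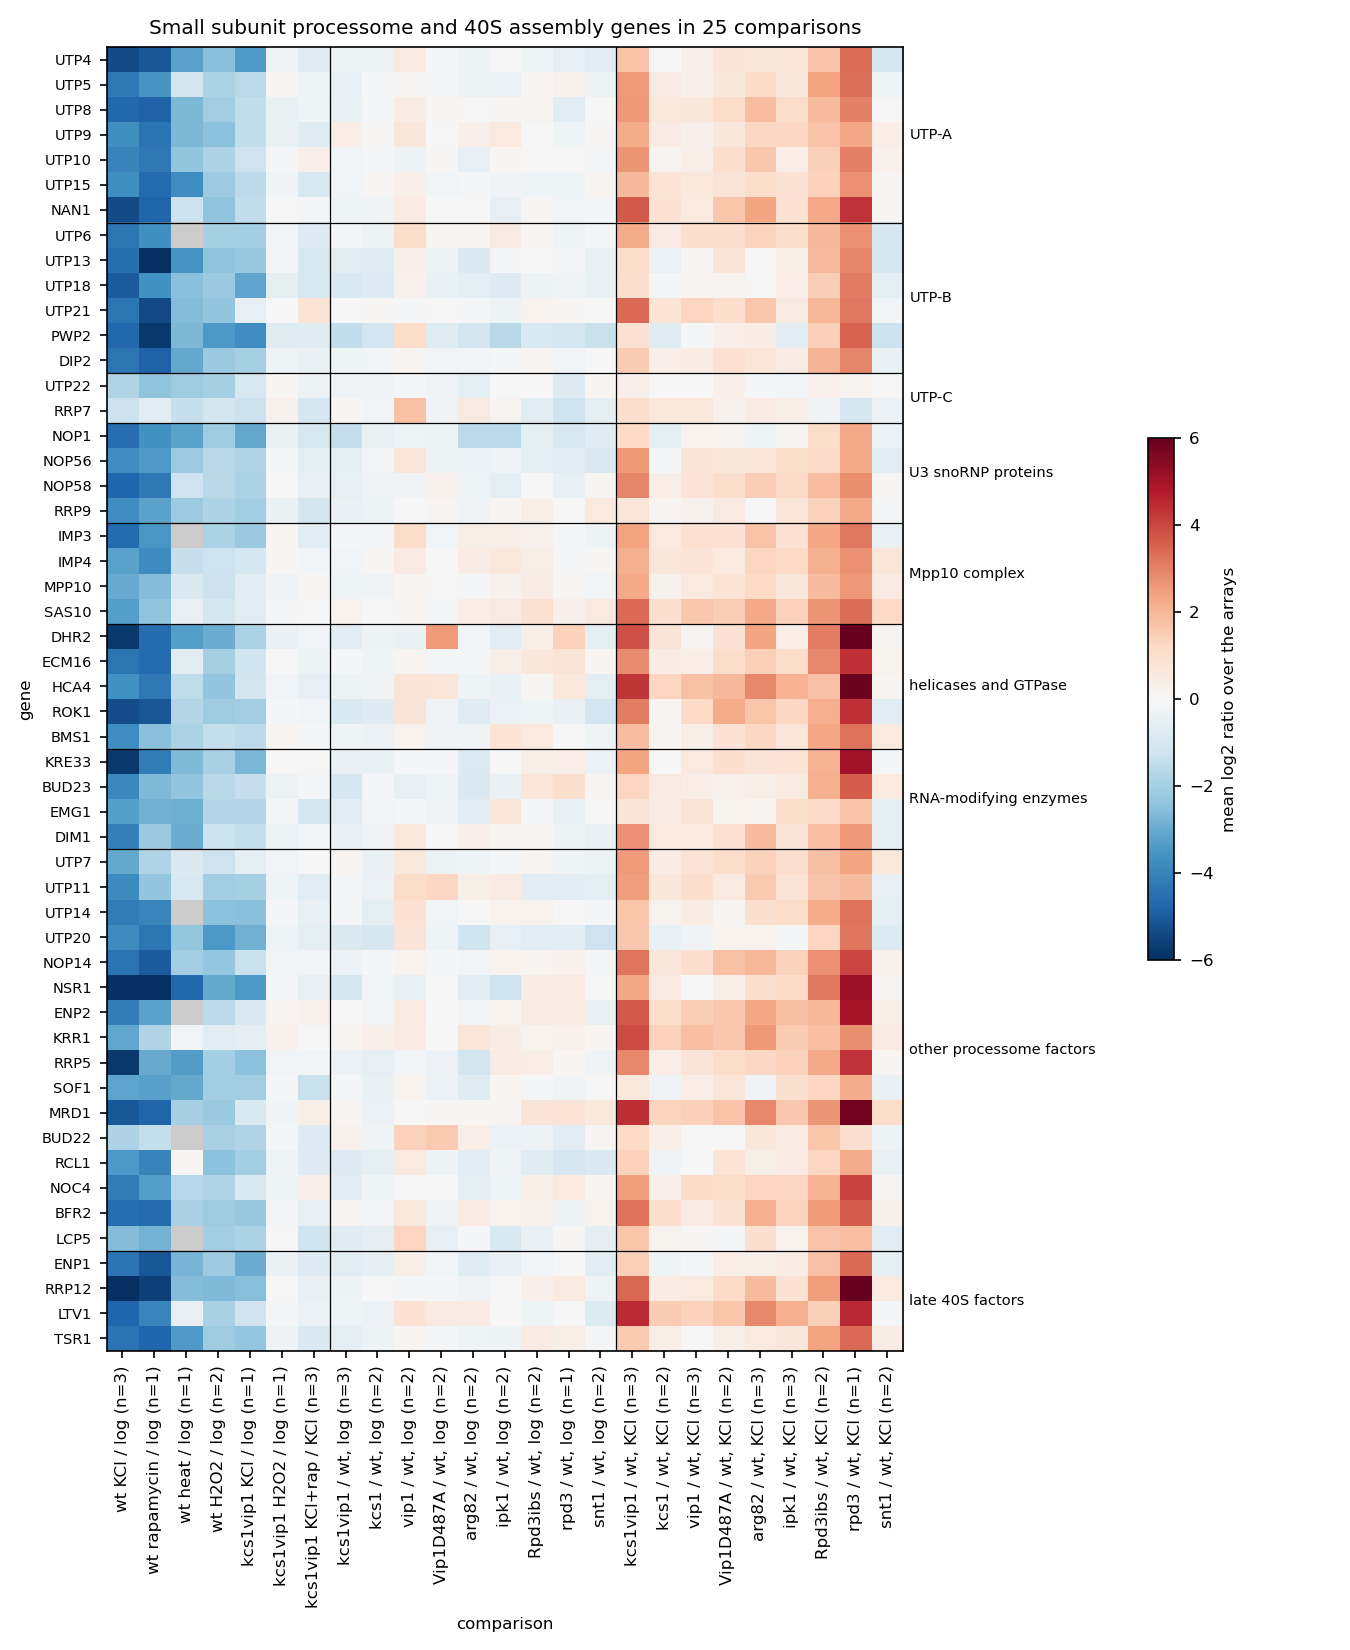
Mean log2 ratio (colour, scale ending at -6 and 6, grey for no value) of each of the 52 genes (rows, by class) in 25 comparisons (columns, with the number of arrays); the arrays of kcs1vip1 over wild type in H2O2 and heat are not drawn. Wild type stress columns are blue, most log growth columns are pale, and the KCl columns of kcs1vip1, Rpd3ibs and rpd3 are mostly red. UTP22 and RRP7 have little or no red in Rpd3ibs and rpd3, and UTP22 (0.32), SOF1 (0.62) and RRP9 (0.74) have the least in kcs1vip1.

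H2O2 lowered the set less. The median over the genes was -2.06, a 4.17-fold reduction, on 2 arrays, and 50 of 52 genes fell, against 21.4% of all 5735 genes tested. PWP2 was at -3.76 and -3.15, UTP20 at -3.44 and -3.46 and NSR1 at -3.26 and -2.91, the 3 lowest means. SAS10 of the Mpp10 complex (-1.40 and -0.74, adjusted p = 0.0517) and KRR1, a KH-domain protein (-0.94 and -0.32, adjusted p = 0.207), did not pass. Without replicate 1 the count of genes that fell was 38, and without replicate 2 it was 50.

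The difference between the 2 stresses was tested in the same fit. Values in KCl minus those in H2O2 had a median of -2.23 and 42 of 52 genes were lower in KCl, against 18.0% of all genes. KRE33 differed by -3.87 ± 0.46 (SE), NSR1 by -3.79 ± 0.60 and RRP5, a factor needed for both subunits, by -3.72 ± 0.35. UTP22 (0.21 ± 0.32, adjusted p = 0.651) and RRP7 (-0.18 ± 0.38, adjusted p = 0.753) were among the 10 that did not pass, with UTP11, HCA4, PWP2, UTP9, RCL1, LCP5, UTP20 and BUD22. After every array was scaled to the same spread, 3 genes passed, so this count rests on the scale of the values as deposited.

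Heat and rapamycin were measured on 1 array each and have no test. In heat the median over the 46 genes with a value was -2.26, and 38 of them were at least 2-fold lower (18.3% of all genes). NSR1 was lowest at -4.73, and RCL1, a cleavage factor of the precursor, was at 0.08. In rapamycin the median was -3.97, and 51 of 52 genes were at least 2-fold lower (16.9% of all genes), with UTP13 at -6.71, NSR1 at -6.42 and PWP2 at -5.78. RRP7 alone lay above -1, at -0.64. RRP7 was also the highest gene of the set in KCl.

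In log growth the double mutant kcs1vip1 differed little from wild type over the set. The median was -0.29, and 10 of 52 genes fell, a share close to the 19.0% of all genes. They were PWP2 (-2.38, -1.58 and -0.54), NOP1 (-1.72, -1.12 and -1.46), NSR1 (-1.42, -0.65 and -1.09), BUD23, UTP18, ROK1, RCL1, UTP13, NOC4 and EMG1, and none rose. PWP2 had the largest difference at -1.50 ± 0.43 (SE, adjusted p = 0.00664). The count was 3 without replicate 1, 5 without replicate 2, 6 without replicate 3 and 1 with the slide as a fixed block, so the count was not stable to the loss of any 1 array.

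In KCl the same mutant held far more processome RNA than wild type. The median ratio was 2.34, which is 5.06-fold, and 50 of 52 genes rose above wild type, against 24.8% of all genes. On all 3 arrays 50 genes were above 0, the exceptions being UTP22 and SOF1 (1.14, 0.00 and 0.71). LTV1 was at 5.03, 3.75 and 4.63, MRD1, an RNA-binding protein of the early particle, at 3.78, 4.26 and 5.29, and HCA4 at 4.44, 3.36 and 5.06. UTP22 was at 0.16, -0.07 and 0.86 and PWP2 at 1.08, 0.42 and 1.31, and neither passed (adjusted p = 0.191 and 0.0697).

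The KCl value minus the log growth value is the amount by which the mutant's response to KCl differs from that of wild type. For kcs1vip1 its median was 2.57, which is 5.94-fold, and 48 of 52 genes were higher, against 13.4% of all genes. LTV1 differed by 4.72 ± 0.48 (SE, adjusted p = 1.7e-08), HCA4 by 4.57 ± 0.73 and DHR2 by 4.49 ± 0.70. The 4 that did not pass were UTP22 (0.51 ± 0.29, adjusted p = 0.189), SOF1 (0.67 ± 0.33, adjusted p = 0.142), RRP7 (0.82 ± 0.34, adjusted p = 0.0716) and BUD22 (0.96 ± 0.68, adjusted p = 0.311). All 7 UTP-A, 6 UTP-B, 4 U3, 4 Mpp10, 4 late 40S and 4 enzyme genes passed with all 5 of the helicase and GTPase class, as did 14 of the 16 other factors and 0 of the 2 UTP-C genes.

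The size of that difference ran across the classes. The helicases and the GTPase had the largest median (3.96), from BMS1, the GTPase, at 2.08 to HCA4. UTP-A lay at 2.82, where NAN1 (3.95) was highest and UTP9 (1.82) lowest, and UTP-B at 2.13, where UTP21 (3.36) was highest and DIP2 (1.75) lowest. RRP9 (1.12) was low among the U3 proteins and NOP58 (3.44) high. On the 2 slides that carried both arrays of a pair the median difference was 2.96 and 2.31, with all 52 genes above 0 on each, and the median of all genes was -0.03 and -0.04.

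Markers of mating type and stress genes also moved in this mutant. In log growth 5 of 6 a-cell markers fell (median -2.40) and 0 of 4 alpha-cell markers passed, and 9 of 13 stress-induced check genes rose with 1 falling (median 1.95). In KCl minus log growth 3 of 6 a-cell markers were higher (median 0.88), 1 of 3 alpha-cell markers was lower, and 8 of 13 stress-induced genes were lower (median -2.72). Their part in the processome values was not tested.

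The mutant's own response to KCl was derived as the wild type response plus that difference. Its median was -1.38, and 28 of 52 genes fell, against 9.09% of all genes. After scaling to the same spread 0 passed, and without the arrays on which KCS1 and VIP1 were not low or had no value 10 did. The second of these settings left 1 array of the mutant over wild type in KCl. In the main fit NSR1 (-3.49 ± 0.66 SE), UTP4 (-3.33 ± 0.51), UTP18 (-3.11 ± 0.40) and KRE33 (-2.99 ± 0.50) had the lowest values. LTV1 (-0.03 ± 0.64), SAS10 (-0.07 ± 0.63), KRR1 (0.66 ± 0.56) and HCA4 (0.96 ± 0.89) had the highest, and none of these 4 passed. The value of HCA4 includes the wild type array on which this gene stood apart.

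A separate array set the mutant in KCl directly against the mutant in log growth. All 52 genes were below 0 on it, with a median of -1.81, and 43 were at least 2-fold lower (13.1% of all genes). PWP2 was lowest at -3.71, with NSR1 at -3.46 and UTP4 at -3.39, and UTP21 was highest at -0.50. The direct and the derived values lay within 1 log2 unit of each other for 44 of the 52 genes, and the largest gap was that of HCA4, at -1.12 on the direct array. For 42 of the 47 genes with all values the direct array was above every wild type KCl array, against 35.7% of all genes. The 5 that overlapped were PWP2, RRP7, HCA4, BUD22 and LCP5. Thus both ways of reading the mutant gave a KCl reduction that was present and smaller than in wild type.

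**Figure D3:**
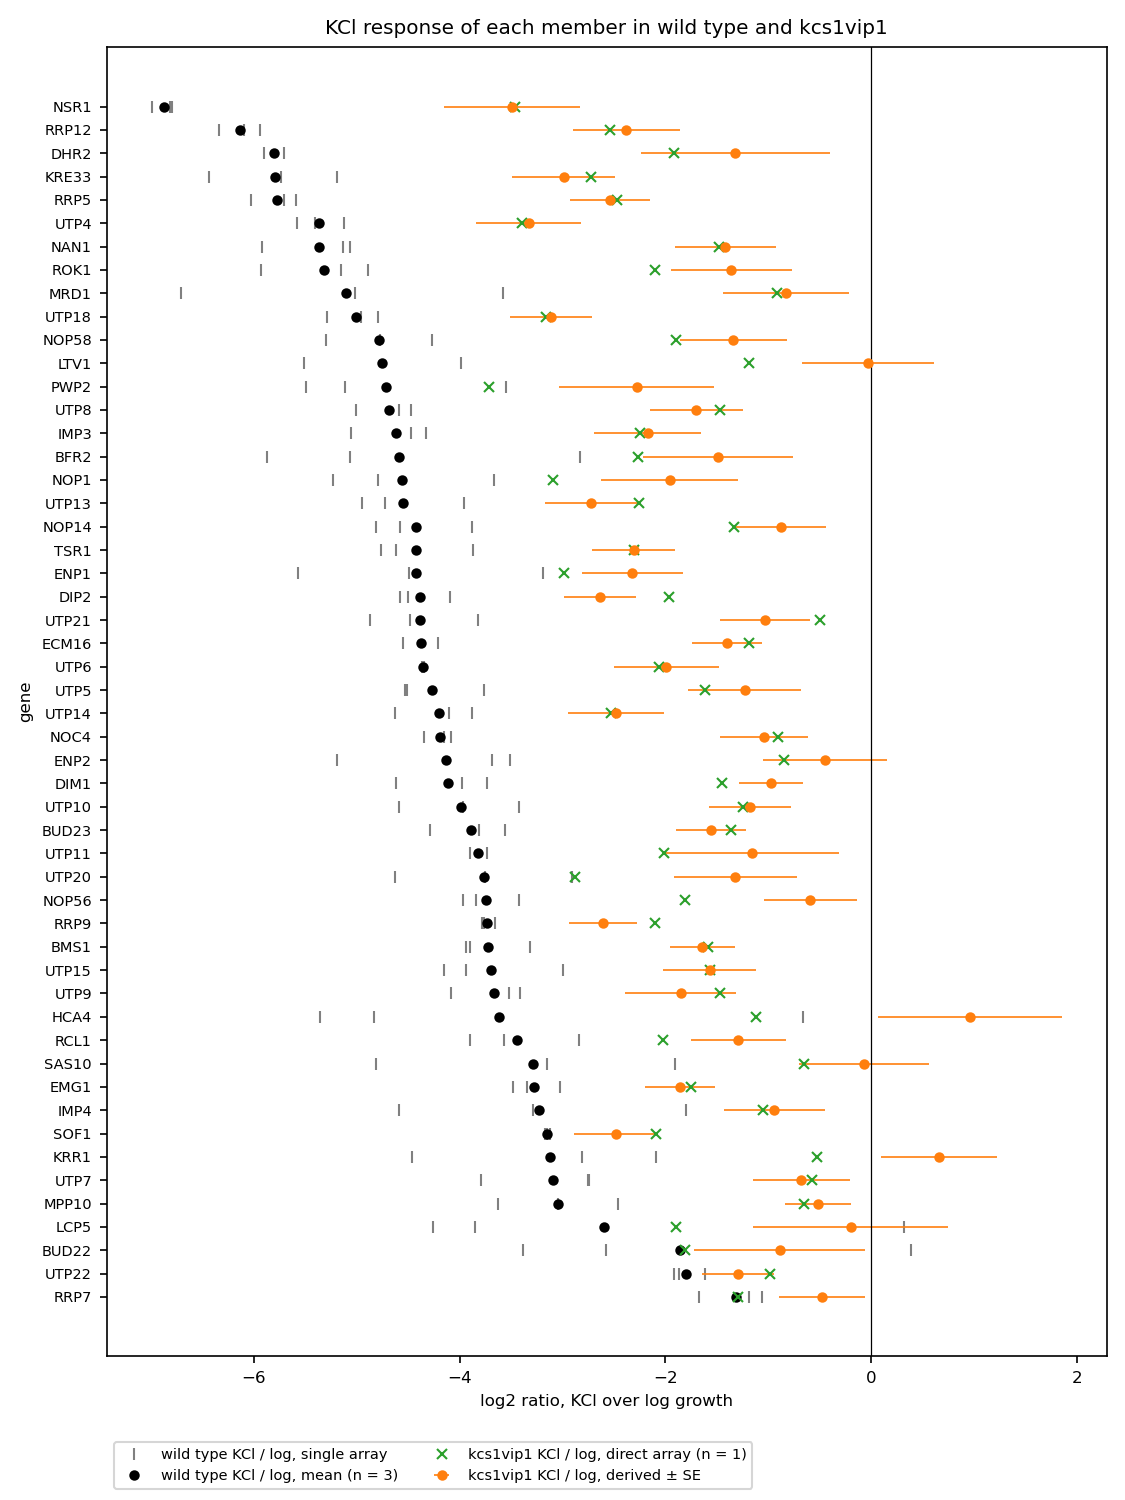
Log2 ratio of KCl over log growth (x axis) for each gene (y axis, ordered by the wild type mean): grey ticks are the wild type arrays, black points their mean, orange points the derived kcs1vip1 response with its SE, and green crosses the direct kcs1vip1 array. The mutant lies to the right of wild type for most genes, with NSR1 at -6.87 in wild type and -3.49 in the mutant, and the gap is small for UTP22, SOF1 and RRP7.

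Mutants of the deacetylase also kept more processome RNA in KCl. In Rpd3ibs 48 of 52 genes rose above wild type (median 1.89, against 15.7% of all genes), and in log growth 2 of 52 rose, ECM16 and BUD23 (10.3% of all genes). NSR1 was at 0.53 and 0.40 in log growth and at 3.16 and 3.18 in KCl. KCl minus log growth had a median of 1.80 (3.48-fold), and 37 of 52 genes were higher, against 4.29% of all genes. NSR1 (2.70 ± 0.66 SE, adjusted p = 0.00978), NOP14 (2.60 ± 0.44) and ROK1 (2.44 ± 0.59) were the highest that passed, and DHR2 (2.68 ± 0.85) had an adjusted p of 0.0563. UTP22 (0.30 ± 0.35), RRP7 (0.48 ± 0.42) and RRP9 (1.03 ± 0.33) were lowest and did not pass.

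These calls rest on 2 arrays a condition. The count was 16 without log growth replicate 1, 11 without log growth replicate 2, 7 without KCl replicate 1 and 13 without KCl replicate 2, and 21 with all arrays brought to the same spread. The medians hardly differed between the 2 slides, at 1.82 and 1.85, with all 52 genes above 0 on each. The derived response of Rpd3ibs to KCl had a median of -2.42, and 39 of 52 genes fell (9.66% of all genes), or 0 after scaling. The derived responses of all strains share the 3 wild type KCl arrays. In Rpd3ibs 5 of 6 a-cell markers fell in log growth (median -1.45) and 3 of 6 in KCl (median -0.92), and 1 alpha-cell marker rose in each, of 2 and 3 tested. Of the stress-induced check genes 2 of 13 rose in log growth and 2 of 13 were lower in KCl minus log growth (median -0.74). Their part in the processome values was not tested.

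The rpd3 deletion was measured on 1 array a condition. In KCl its median was 3.17, and 49 of 52 genes were at least 2-fold above wild type (18.8% of all genes). DHR2 was at 7.57, RRP12 at 6.00, HCA4 at 5.90 and NSR1 at 5.14, while UTP22 was at 0.18 and RRP7 at -1.03. In log growth the median was -0.08, with DHR2 at 1.38 and RRP7 at -1.25. On the slide that held both arrays KCl minus log growth had a median of 3.21. On the KCl array RRP7, UTP22 and BUD22 (0.99) were the 3 genes short of 2-fold. On both arrays 5 of 6 a-cell markers were at least 2-fold lower, with BAR1 at -4.63 in log growth and -4.90 in KCl, and the stress-induced check genes had medians of 1.30 and -0.96. Their part in the processome values was not tested either.

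Loss of ARG82, the multikinase early in the pathway, also left more processome RNA than wild type in KCl. In log growth 6 of 45 genes fell (9.58% of all genes), the lowest being NOP1 at -1.64 and -1.57. In KCl 35 of 52 rose (median 1.24, 13.9% of all genes), with LTV1 at 2.61, 2.41 and 3.67 and MRD1 at 2.87, 2.46 and 3.33. KCl minus log growth had a median of 1.44 over 45 genes, and 20 were higher, against 2.51% of all genes. HCA4 (3.12 ± 0.81 SE), MRD1 (2.83 ± 0.56) and ENP2 (2.48 ± 0.55) were highest, and RRP7 (-0.07 ± 0.38), RRP9 (0.16 ± 0.30) and BUD22 (0.31 ± 0.76) lowest.

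That count varied with the arrays and the fit. It was 5 without either log growth array, up to 16 without 1 of the KCl arrays, 32 when only the groups compared were fitted and 0 without the arrays on which ARG82 had no value. The last setting left 1 arg82 array a condition, so its count cannot tell a lost difference from lost precision. The arrays it left out correlated with those kept at 0.93 in log growth and at 0.94 and 0.76 in KCl. On 1 slide that held both conditions the median was 1.57 with all 52 genes above 0, and on the other 44 of 45 genes were above 0. The derived KCl response of arg82 had a median of -2.64 and 39 of 45 genes fell (17.4% of all genes), or 5 after scaling. In log growth all 5 a-cell markers tested fell (median -1.74) and 6 of 13 stress-induced check genes rose (median 1.46), and in KCl 5 of 6 a-cell markers fell and 1 rose. In KCl minus log growth 3 of 13 stress-induced genes were lower and 1 higher (median -0.71), and 0 of 5 a-cell markers passed (median 0.22). What share these genes have in the arg82 values was not tested.

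The kinase deletions kcs1 and vip1 had few genes past the test for the difference in response. In kcs1 2 of 52 genes rose in KCl, LTV1 (1.09 and 1.91) and KRR1 (0.98 and 1.77), against 2.71% of all genes. The KCl minus log growth median of kcs1 was 0.67, and limma called 0 of 52 genes higher, with 7 at an unadjusted p below 0.05 and 0% of all genes called. The derived KCl response had a median of -3.50 with 48 genes falling (19.3% of all genes), or 19 after scaling. Leaving out the doubted log growth array, with both ipk1 replicate 2 arrays, left 1 kcs1 log growth array and gave a median difference of 0.82. On the 1 slide that held both conditions the median difference was 0.74. All 52 genes were above 0 on that slide, the lowest at 0.01, and 10 were at least 2-fold higher.

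In vip1 3 of 48 genes rose in log growth (9.12% of all genes), DIM1, UTP6 and RRP7, the last at 1.78 and 1.70. In KCl 17 of 51 rose (median 0.59, 4.63% of all genes), with KRR1 at 1.98, 1.69 and 1.68 and HCA4 at 1.99, 1.86 and 1.39. For KCl minus log growth the median was 0.24, and UTP21 alone of 48 was higher (1.36 ± 0.40 SE, adjusted p = 0.0411), against 2.69% of all genes. BUD22 was lowest at -1.35 ± 0.76 and SAS10 highest, with an adjusted p of 0.115. The call of UTP21 was lost whenever 1 array of vip1 was left out, and the count was 13 when only the groups compared were fitted and 8 with the slide as a block. All 48 genes fell in the derived KCl response (median -3.96, 23.6% of all genes), and the within-slide medians of the difference were 0.48 and 0.36.

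For ipk1 in KCl 33 of 52 genes rose (median 0.86, 11.4% of all genes), although the 3 arrays had medians of 1.40, -0.06 and 1.23. NSR1 was at 2.71, -0.95 and 1.67 and PWP2 at 0.62, -2.52 and 0.02, so replicate 2 lay apart for both genes. KCl minus log growth had a median of 0.89, and limma called 0 of 52 (23 at an unadjusted p below 0.05, 0.0180% of all genes called). The count was 27 without KCl replicate 2 and 13 without log growth replicate 1, and without replicate 2 of both conditions it was 1. The within-slide medians were 1.13 and, for the doubted pair, 0.38.

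Vip1D487A and snt1 gave no call for the difference. Vip1D487A in KCl had 13 of 49 genes above wild type (1.58% of all genes), with ROK1 at 1.84 and 2.62. As deposited, 43 genes were above 0 on every KCl array with a value, so turning the swapped array must pull their means toward 0. With it turned 0 of 49 passed (median 0.24, 2 at an unadjusted p below 0.05). That count cannot decide the sign, and the direction in Vip1D487A is not settled. Its KCl minus log growth median was 0.97 with 0 of 49 called by limma and 23 at an unadjusted p below 0.05 (0% of all genes called), and 0.37 with the swapped arrays turned. The swapped log growth array held DHR2 at 5.20 and BUD22 at 3.10, where the unswapped array held -0.13 and 0.04. The within-slide medians were 1.27, with 52 of 52 genes above 0, and, for the swapped pair, 0.56, with 40 of 49 above 0. In snt1 the median was 0.18 with 0 of 52 called and 2 at an unadjusted p below 0.05 (0% of all genes called), and 0.25 and 0.13 within slides. A missed threshold does not show that these strains respond as wild type does.

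**Figure D4:**
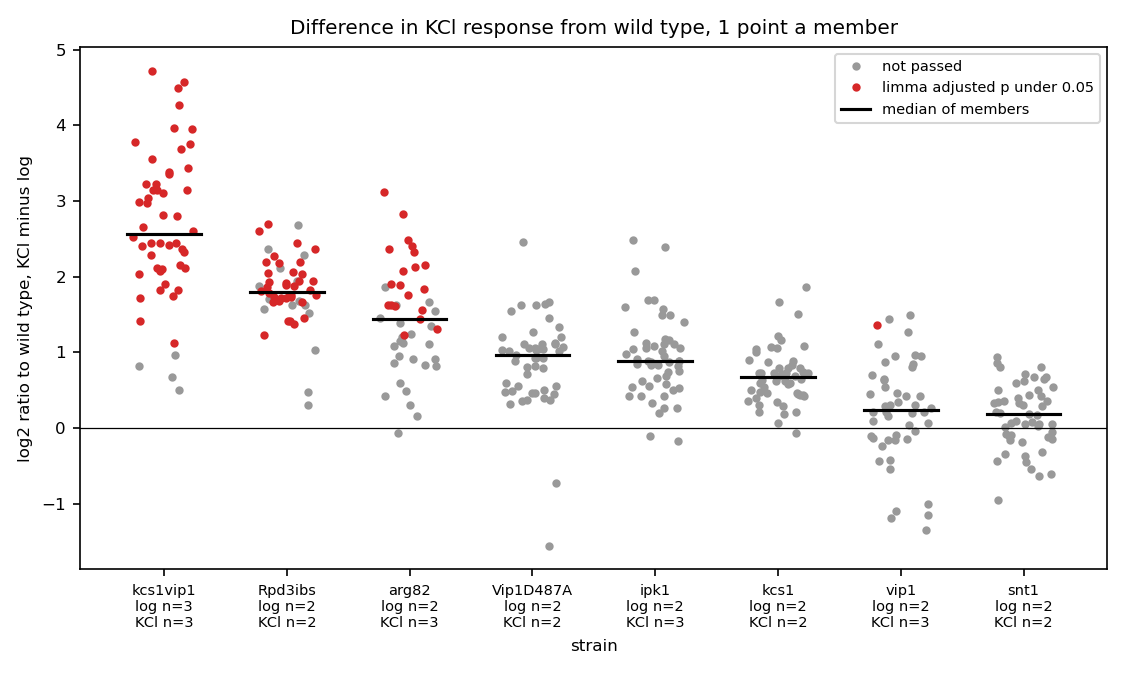
KCl minus log growth log2 ratio to wild type (y axis) in 8 mutants (x axis), 1 point a gene, red where the limma adjusted p was below 0.05, with a line at the median. The medians run from 2.57 in kcs1vip1, 1.80 in Rpd3ibs and 1.44 in arg82 to 0.24 in vip1 and 0.18 in snt1, and the lowest points of kcs1vip1 and Rpd3ibs include UTP22 and RRP7.

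The differences between mutants were tested in the same fit, where the mutants share wild type as their reference. The kcs1vip1 difference exceeded that of kcs1 for 21 of 52 genes (median 1.97, 3.63% of all genes), with DHR2 at 3.42 ± 1.10 (SE, adjusted p = 0.0704), RRP12 at 3.35 ± 0.67 (adjusted p = 0.00344) and NOP56 at 3.08 ± 0.58. The kcs1 side of this contrast includes the log growth array that went against its label, and no count without that array is given. The kcs1vip1 difference exceeded that of vip1 for 41 of 48 genes (median 2.30, 8.61% of all genes), led by LTV1 at 4.18 ± 0.72 and NAN1 at 3.86 ± 0.60. Against arg82 0 of 45 passed (median 1.22, 20 at an unadjusted p below 0.05, 0.0395% of all genes) and against Rpd3ibs 0 of 52 (median 0.76, 17 at an unadjusted p below 0.05, 0.127% of all genes). LTV1 had the largest difference from Rpd3ibs, 3.04 ± 0.76 with an adjusted p of 0.0805.

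Rapamycin was also given to the double mutant in KCl, and this strain was set against itself in KCl without it. Over the 3 arrays the median was -0.44, and 8 of 52 genes fell, against 2.58% of all genes. They were SOF1 (-1.47, -1.11 and -1.47), RRP9 (-1.11, -0.79 and -1.37), EMG1 (-0.66, -1.39 and -1.11), RRP7 (-0.54, -1.90 and -0.54), UTP18, UTP13, UTP15 and TSR1. The first 4 had means over wild type in KCl of 0.62 for SOF1, 0.74 for RRP9, 0.80 for EMG1 and 0.95 for RRP7, all well under the set's median of 2.34. The other 4 were at 0.98 for UTP18, 1.12 for UTP13, 1.94 for UTP15 and 1.57 for TSR1, so UTP15 lay nearer that median. UTP22 (0.32) and PWP2 (0.94) were also low over wild type in KCl and did not pass in rapamycin (limma adjusted p = 0.377 and 0.363). A link between the 2 values was not tested.

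UTP21 was the highest gene, at 0.74, 0.95 and 0.81 (mean 0.83 ± 0.26 SE, adjusted p = 0.0509). In total 29 genes were below 0 on all 3 arrays and 4, UTP10, UTP21, ENP2 and MRD1, above 0 on all 3. The count was 2 without replicate 2, 5 without replicate 3, and 0 without both (2 at an unadjusted p below 0.05, median -0.21), the 2 arrays on which the deleted genes had a value. It was 19 after scaling to the same spread and 4 with the slide as a fixed block. On the wild type array, where rapamycin was set against log growth without KCl, UTP21 was at -5.41 and MRD1 at -4.81. For 50 of 52 genes all 3 mutant arrays lay above the wild type array, against 30.6% of all genes and with RRP7 and BUD22 as the exceptions, but the backgrounds of the 2 comparisons differ, since the mutant cells were already in KCl.

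**Figure D5:**
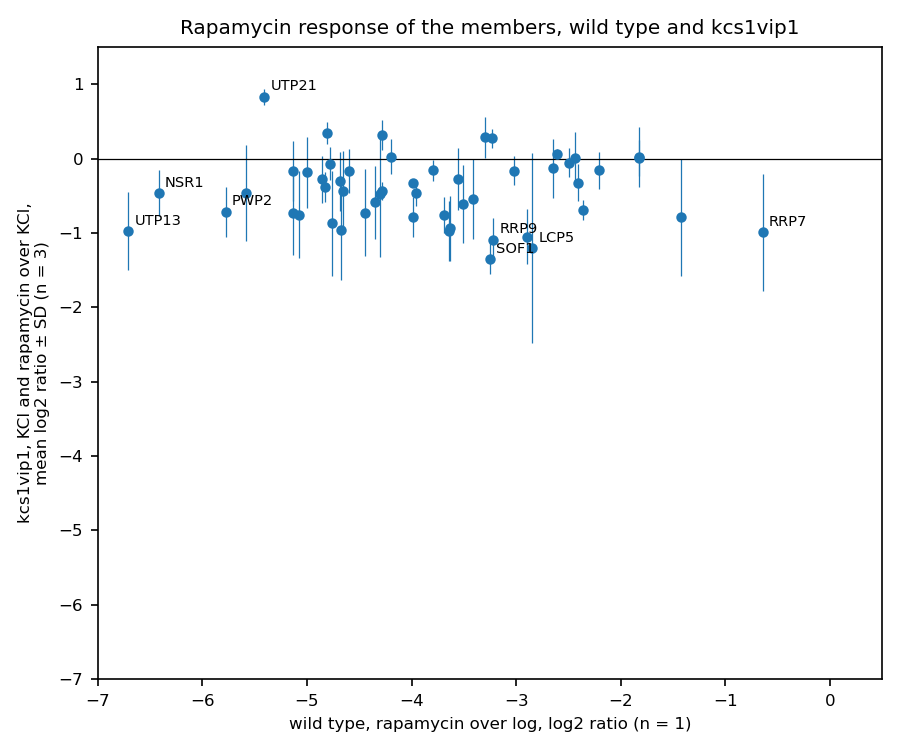
Rapamycin response of the 52 genes: wild type, rapamycin over log growth on 1 array (x axis, log2 ratio), against kcs1vip1, KCl with rapamycin over KCl (y axis, mean log2 ratio and SD of 3 arrays). Wild type values spread from -6.71 to -0.64 while the mutant means stay between -1.35 and 0.83.

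In H2O2 the double mutant set directly against itself in log growth had a median of -0.12, and 0 of 52 genes were at least 2-fold lower (0.489% of all genes). PWP2 was lowest at -0.72 and KRR1 highest at 0.26. All 52 genes lay above both wild type H2O2 arrays, against 38.9% of all genes. On the 2 arrays labelled as the mutant over wild type in H2O2 limma called 0 of 52 genes, with 1 at an unadjusted p below 0.05, where 3.34% of all genes rose and 1.68% fell. The value minus that of log growth passed for BUD23 alone (1.52 ± 0.31 SE, against 8.27% of all genes). BUD23 was at 0.50 on those H2O2 arrays (adjusted p = 0.302) and at -1.03 in log growth, so most of that difference lies in log growth. The 2 H2O2 arrays are among those that went against their label, so no direction is drawn from this difference.

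Other genes of ribosome synthesis were followed from lists by function. In wild type KCl 15 of 16 other 40S assembly genes fell (median -2.80), among them the helicase genes DBP8 (-4.31 ± 0.28 SE) and HAS1 (-3.41 ± 0.24). All 52 genes of 60S assembly fell (median -4.42, NOC2 -6.18 ± 0.28), as did 13 of 14 RNA polymerase I genes (median -2.40, RPA43 -5.07 ± 0.31), whereas 19 of 56 small ribosomal protein genes fell (median -0.47, RPS27A -3.58 ± 0.34). Of all genes 31.3% fell, so the count of small ribosomal protein genes was near that share. In kcs1vip1 KCl minus log growth 11 of 16, 48 of 52, 9 of 14 and 6 of 56 genes of these lists were higher, with medians of 1.68, 2.59, 1.02 and 0.38. The share of all genes was 13.4%, which the small ribosomal protein genes did not exceed. The 52 processome genes thus lay near the 60S assembly genes in both contrasts, with no test of the lists against each other.

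Of 25 regulator genes, 7 fell and 6 rose in wild type KCl, counts no higher than the 31.3% and 29.6% of all genes would give. IFH1 (-1.80 ± 0.22 SE), FHL1 (-1.34 ± 0.16), which with Ifh1 activates ribosomal protein genes, and SCH9 (-1.62 ± 0.38), a kinase under TORC1, fell, and MSN2 (1.97 ± 0.21), an activator of stress genes, and PHO23 (1.69 ± 0.35), a subunit of the Rpd3L complex, rose. The SCH9 mean covers arrays of opposite sign, at 0.47, -2.72 and -2.61, of which the first is the dye-swapped one, so its fall is not settled. In kcs1vip1 KCl minus log growth the 25 lay between -0.55 and 0.59 and none passed the limma test, the smallest adjusted p being 0.125 for HMO1.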

How the data were processed

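Values are log2 ratios as the authors deposited them in 1 table of 6317 entries for 55 two-colour arrays. The base was read from the values, and the normalization and background correction are not given in the sources used here. The 61 control entries were left out, repeated probes of a gene averaged, and 407 exact zeros in 3 columns set to missing. No sign was turned for a dye swap. One mean per group was estimated for 27 groups on 54 arrays, using limma 3.58.1 under R 4.3.3 (27 residual degrees of freedom), with empirical Bayes moderation and Benjamini-Hochberg adjustment over all genes with at least 2 values in each group of a contrast, at a threshold of 0.05. Groups with 1 array got no test; where leaving out arrays left 1 in a group, it was assumed to vary like the arrays of the other groups. The procedure was tested on simulated data. Arrays carry no counts, so their number limits the precision. The 52 genes and the other gene lists were chosen with earlier results of these data known. Array values were given for the lowest and highest gene of each class in wild type KCl, for 8 well-known members and, per contrast, for the 3 largest and 3 smallest, and BUD22, LCP5 and some further genes were named after their values were seen. Alternatives concerned centring, scaling, genes tested, slide, dye, moderation, zeros, arrays fitted and single arrays. A planned search of promoters was not run.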

Additional observations from a re-analysis of the deposited data

Results flagged for a closer look

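The KCl response differed from that of wild type, by a test of the difference itself, for 48 of 52 genes in kcs1vip1 (13.4% of all genes), 37 of 52 in Rpd3ibs (4.29%), 20 of 45 in arg82 (2.51%) and 1 of 48 in vip1 (2.69%), all higher. Leaving out 1 array gave 47 to 49, 7 to 16, 5 to 16 and 0, so the vip1 call is neither above the share of all genes nor stable. The difference of kcs1vip1 was larger than that of kcs1 for 21 of 52 genes (3.63% of all genes) and larger than that of vip1 for 41 of 48 (8.61%). The comparison with kcs1 includes the log growth array of kcs1 that went against its label. The array that fits no group, for which the title sets KCl against no KCl although both source labels read kcs1vip1 with KCl, held 44 of the 52 genes at least 2-fold lower, against 11.5% of all genes, with a median of -1.57 and NSR1 at -3.36. It correlated at 0.95 across genes with the array of kcs1vip1 in KCl over log growth.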

How the results depend on the processing

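No paired analysis was possible because the labels give the arrays no replicate numbers (those used here only name arrays in accession order), other than by slide. The slide in the titles ties log growth and KCl arrays of a strain together, and it was used as a block and for within-slide differences. Under settings other than leaving out 1 array, 164 recomputed counts of genes past the threshold stayed within 1.5 times the count reported and 27 did not. With all arrays scaled to the same spread the counts were 3 for wild type KCl minus H2O2, 5 for kcs1vip1 in log growth, 19 for rapamycin in kcs1vip1, and 7, 21 and 4 for KCl minus log growth in vip1, Rpd3ibs and Vip1D487A. For the derived KCl responses they were 0 in kcs1vip1, 19 in kcs1, 5 in arg82 and 0 in Rpd3ibs. Fitting only the groups compared gave 13 in vip1 and 32 in arg82. The slide as a fixed block gave 1 for kcs1vip1 in log growth, 0 for its H2O2 minus log growth, 4 for rapamycin and 8 for vip1, and as a random block 8 for vip1, 1 for ipk1 and 1 for Vip1D487A. A dye term gave 2 for vip1. Without the arrays on which the altered gene was not low or had no value the counts were 4 for kcs1vip1 in log growth, 0 for vip1, 0 for arg82 and 10 for the derived kcs1vip1 response, with fewer arrays fitted. Among settings chosen after seeing the data, ipk1 had 1 without 3 doubted arrays, rapamycin had 0 without the 2 arrays that gave a deleted gene a value, and Vip1D487A in KCl had 0, against 13, with the swapped arrays turned. Turning 1 of 2 Vip1D487A arrays pulls a shared sign toward 0, so that count does not decide the sign. A group left with 1 array, such as those of arg82 when ARG82 had to have a value, was assumed to vary like the others. The cause of the other changes was not tested. Leaving out 1 array at a time gave 0 to 27 for ipk1, 3 to 6 for kcs1vip1 in log growth, 5 to 16 for arg82, 0 for vip1, 2 to 8 for rapamycin and 7 to 16 for Rpd3ibs. It gave 51 to 52 for wild type KCl, 38 to 50 for H2O2 and 47 to 49 for kcs1vip1 KCl minus log growth.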

Other observations

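PWP2 had the lowest value of the set in log growth in several mutants, at -1.67 ± 0.53 (SE, limma adjusted p = 0.0218) in ipk1 and -1.50 ± 0.43 in kcs1vip1. The ipk1 value averages -0.90 and -2.43, the second from the doubted replicate 2, so without it the value is -0.90. In vip1 it was at 1.08 (adjusted p = 0.142). It was also the lowest gene on the array of kcs1vip1 in KCl over log growth. The gene was picked after its values were seen.

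None of the 52 genes lies next to another of them in the genome, and 4 have a listed assembly gene as neighbour. LCP5 and the 60S assembly gene NSA2 are divergent neighbours, at -2.60 and -5.48 in wild type KCl, and UTP13 and RSA3 tandem ones, at -4.55 and -4.38. The other neighbours with a value had a median of -0.32 over 75 genes, of which 20 (26.7%) were at least 2-fold lower, against 18.7% of all genes. The median was -0.53 over 21 divergent, -0.36 over 35 tandem and 0.10 over 19 convergent neighbours, and -0.02 over all 5863 genes. The 2 sets are unlike, since the neighbours with a value are named genes only. The 5863 also include probes without a gene name and the 52 genes themselves.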
